A study of Mus musculus with 31 samples.

Results

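The 15 kidneys of mice given phosphate-buffered saline (PBS) were ranked by the ratio of a pair of clock transcripts, Arntl and Dbp, and the 5 kidneys at the top of the ranking were compared with the 5 at the bottom. The ratio was log2((Arntl count + 1)/(Dbp count + 1)) in each library, and both genotype labels entered the ranking. The kidneys of each class were thus chosen by their own Arntl and Dbp counts. The 5 highest are called Arntl-high here, the 5 lowest Dbp-high and the other 5 middle kidneys. Arntl and Dbp chose the kidneys, so their values are a description with no test, and both were left out of the fits across genes. The ranking comes from the measured values and not from a label: no time of day of collection is given in the sources used here, and phase itself was not measured.

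The series holds 31 kidney libraries from male mice on the B6 background, of which these 15 are the PBS arm. The mice were labelled WT (8 with PBS, 8 with cisplatin) or HET (7 with PBS, 8 with cisplatin) for Nbl1, a gene of the secreted DAN family of BMP antagonists, and the sources used here give neither the kind of allele nor the cisplatin dose. Cisplatin, a platinum drug that injures kidney tubules, or PBS was given for 4 weeks from the age of 8 weeks, and kidneys were taken 3 days after treatment at a stated age of 11 weeks, which is less than those times add up to. Each library has its own number in its title, read here as an animal number and as 1 animal, and p-values measure the spread between these libraries, which may in part be technical. The assay was bulk mRNA sequencing of the kidney, in which fewer cells of a type and less RNA per cell cannot be told apart.

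The circadian clock is a feedback loop of transcription that runs in most cells, kidney tubules included. ARNTL (also called BMAL1) pairs with CLOCK or NPAS2 and binds E-boxes to switch on the Per and Cry genes, Ciart, Nr1d1, Nr1d2 and Dbp, and the PER and CRY proteins then block the pair. The REV-ERB receptors (Nr1d1, Nr1d2) repress, and the ROR receptors activate, genes with ROR elements, among them Arntl, Npas2, Cry1 and Nfil3. DBP, TEF and HLF act at D-boxes, which NFIL3 also binds. Arntl and Dbp transcripts therefore peak far apart in the day in mouse tissues, which is why their ratio is commonly read as a guide to phase.

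Matches to these clock elements in the promoters of genes described below are shown here, for genes that rose and for genes that fell. The windows were taken from the 250 bases before a gene's start in the RefSeq promoter table of GRCm38.p6, the matched letters are in capitals, and each run is given 5′ to 3′ on the gene's own strand. The first 5 hold the E-box CACGTG. Per3 holds the D-box TTATGTAA. Leo1 holds the ROR element core TAGGTCA, and Gjb2 the same core on the opposite strand, so that its letters read TGACCTA.
Ciart, chr3:95882317-95882366, minus strand: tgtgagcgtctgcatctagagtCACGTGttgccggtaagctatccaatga
Bhlhe41, chr6:145865546-145865595, minus strand: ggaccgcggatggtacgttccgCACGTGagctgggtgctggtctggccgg
Cry1, chr10:85185087-85185136, minus strand: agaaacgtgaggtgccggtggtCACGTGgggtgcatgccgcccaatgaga
Slc16a1, chr3:104638442-104638491, plus strand: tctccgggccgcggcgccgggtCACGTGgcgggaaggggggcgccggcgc
Coq10b, chr1:55052670-55052719, plus strand: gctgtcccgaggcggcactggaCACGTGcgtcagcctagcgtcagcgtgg
Per3, chr4:151044841-151044892, minus strand: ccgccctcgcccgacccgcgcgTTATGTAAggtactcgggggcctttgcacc
Leo1, chr9:75441439-75441489, plus strand: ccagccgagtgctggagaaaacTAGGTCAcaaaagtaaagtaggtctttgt
Gjb2, chr14:57104865-57104915, minus strand: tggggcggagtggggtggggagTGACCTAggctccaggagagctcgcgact

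The E-box lies 60 to 55 bases before the start of Cry1, 78 to 73 before Coq10b, 116 to 111 before Ciart, 153 to 148 before Bhlhe41 and 200 to 195 before Slc16a1, and the Ciart window holds 3 such matches. On both strands, CACGTG was found in 6.02% of the 32851 windows of the table and in 9.39% of the 12024 tested genes that have a window. It was found in 4 of the 24 genes with a window that were higher in the Arntl-high kidneys (16.7%) and in 11 of the 58 that were lower (19.0%), so Cry1 and Slc16a1 on one side and Ciart, Bhlhe41 and Coq10b on the other carry the same letters. TTATGTAA was found in 0.699% of the tested genes with a window, in 0 of the 24 higher genes and in 2 of the 58 lower ones, Coq10b and Per3. TAGGTCA was found in 2.14% of the tested genes with a window, in 2 of the 24 higher genes (Adamtsl5 and Leo1) and in 2 of the 58 lower ones (Elf1 and Gjb2). Among the 18 clock genes with a window, Bhlhe41, Ciart, Cry1, Per1 and Tef held the E-box, Per3 the D-box and Nfil3 the ROR element core. A match is a description of letters and not of binding.

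The ratio fell into a separate upper group and a continuous lower one. The Dbp-high kidneys had ratios of -6.11 (WT PBS 8), -5.32 (WT PBS 3), -4.98 (HET PBS 3), -4.50 (WT PBS 4) and -4.42 (HET PBS 1). The middle kidneys followed without a break at -4.23 (WT PBS 2), -4.20 (WT PBS 1), -4.19 (WT PBS 5), -4.03 (HET PBS 2) and -3.85 (WT PBS 6). The Arntl-high kidneys stood at -1.29 (WT PBS 7), -1.23 (HET PBS 4), -0.15 (HET PBS 6), 0.09 (HET PBS 5) and 0.35 (HET PBS 7). The step from the middle to the Arntl-high kidneys was 2.57 log2 units and the step from the Dbp-high to the middle kidneys 0.186, so the lower cut passes through kidneys that are close to each other.

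CPM are counts scaled to a fixed library total, after a scaling factor (TMM) for each library. Arntl ran from 10.4 to 20.1 CPM in the Arntl-high kidneys. It ran from 3.12 to 3.79 in the middle kidneys and from 0.979 to 3.15 in the Dbp-high kidneys. Dbp ran from 15.8 to 25.5 CPM in the Arntl-high, 48.5 to 68.2 in the middle and 64.9 to 89.6 in the Dbp-high kidneys.

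**Figure D1:**
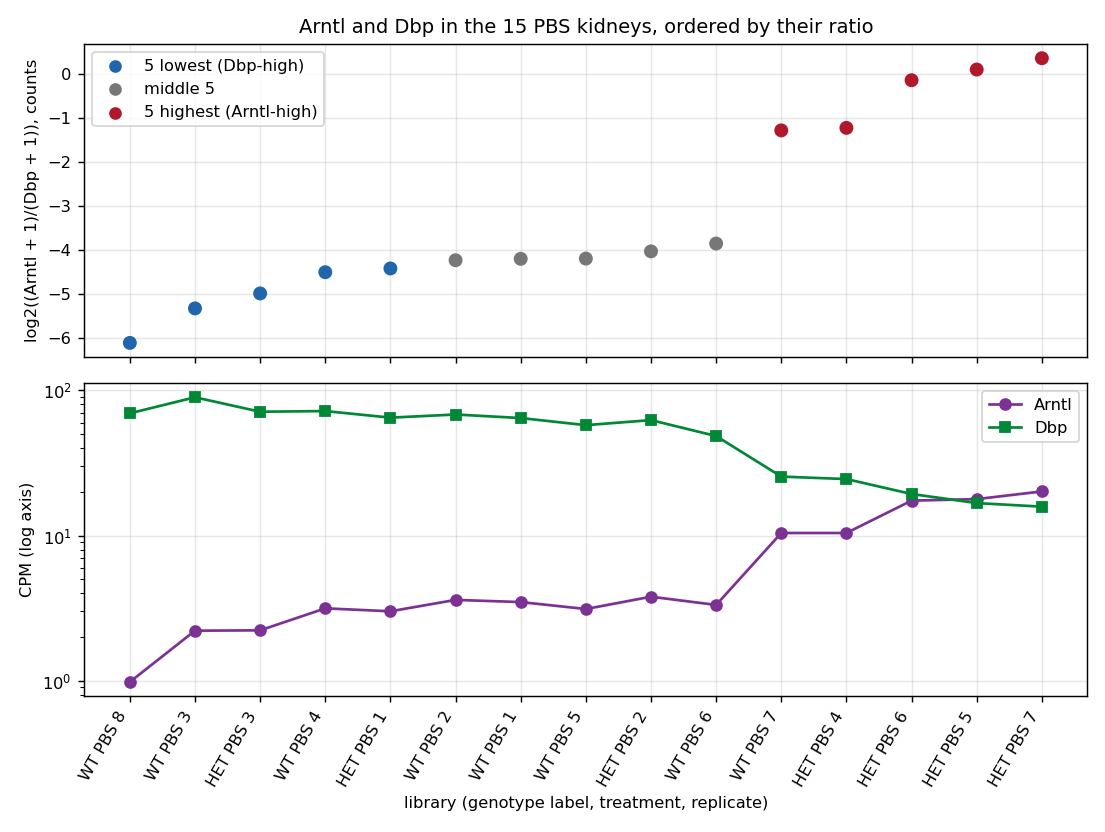
The upper panel plots log2((Arntl + 1)/(Dbp + 1)) from counts for each PBS library in rank order, and the lower panel plots Arntl and Dbp in CPM on a log axis. The 5 Arntl-high kidneys lie between -1.29 and 0.35, apart from the other 10, which run from -6.11 to -3.85.

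The classes differed in their makeup of genotype labels and animal numbers. The Arntl-high kidneys were 1 WT and 4 HET, the middle kidneys 4 WT and 1 HET, and the Dbp-high kidneys 3 WT and 2 HET. The mean ratio was -2.05 ± 2.34 (SD, n = 7) in HET and -4.21 ± 1.39 (SD, n = 8) in WT PBS kidneys, given with no test because the ratio chose the classes. All 5 Arntl-high animals have numbers in the 600s, against 2 of the 5 middle and 1 of the 5 Dbp-high animals. In order of number, the PBS kidneys in the 600s had ratios of -4.20 (WT PBS 5) and -3.85 (WT PBS 6), then -1.29 (WT PBS 7), -1.23 (HET PBS 4), 0.09 (HET PBS 5), -0.15 (HET PBS 6) and 0.35 (HET PBS 7), and last -6.11 (WT PBS 8). The 14 cisplatin kidneys in the 600s had their highest ratios in HET cisplatin 5 (1.60) and HET cisplatin 6 (1.32), whose numbers fall among those of the Arntl-high PBS animals. WT cisplatin 6, whose number also falls among them, was at -0.21. The lowest were WT cisplatin 7 (-1.66) and WT cisplatin 8 (-1.998), whose numbers come later, while HET cisplatin 8, later still, was at -0.55. The sources used here do not say what an animal number stands for, and the ranking, the number and, in part, the genotype label cannot be told apart.

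**Figure D2:**
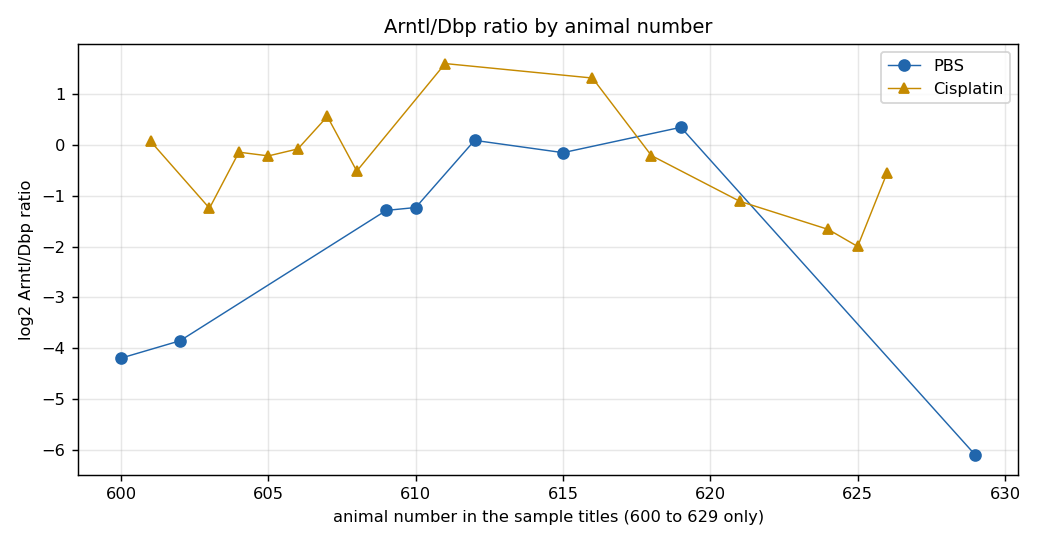
Each point is 1 kidney of an animal numbered in the 600s, with the number on the x axis and the log2 Arntl/Dbp ratio on the y axis, and lines join neighbours of the same treatment. The highest ratios of both treatments, 0.35 for PBS and 1.60 for cisplatin, lie in the middle of the number range, and the lowest PBS ratio, -6.11, lies at its end.

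Depth was similar within each treatment, and some libraries stood apart in Nbl1, by which the genotype labels were checked. Total counts were 29231845 to 37301170 in PBS and 24650858 to 31915040 in cisplatin libraries. Between the Arntl-high and the Dbp-high kidneys, total counts, mitochondrial share, Malat1 share, Nbl1 and the number of genes detected gave no difference past 0.05 (two-sided exact permutation tests, p from 0.206 to 0.865, smallest possible p 0.00794, adjusted p from 0.569 to 0.865). Nbl1 was at 0.0929 and 0.374 CPM in the libraries labelled HET PBS 1 and HET PBS 6, against 2.84 to 3.58 in the other HET PBS libraries, and the library labelled WT PBS 6 was at 3.18, below the 5.04 to 6.93 of the other WT PBS libraries. Under cisplatin, Nbl1 was at 1.22 CPM in HET cisplatin 3 and 0.977 CPM in HET cisplatin 4 as labelled, against 5.31 CPM or more in the other HET libraries. HET PBS 1 is Dbp-high and HET PBS 6 Arntl-high, so counts without both are given below.

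The tissue label was checked against kidney markers. Lrp2, which encodes the proximal tubule receptor megalin, was at 5188 to 5914 CPM in the Arntl-high and 6144 to 6399 in the Dbp-high kidneys, and Umod, the uromodulin gene of the thick ascending limb, at 2622 to 2945 and 2420 to 2904 CPM. The injury marker Havcr1 was low in both (0.864 to 3.57 and 0.898 to 1.81 CPM). Of the 16 lists for injury, nephron segments and other cell types, edgeR called none of the 134 tested genes reported here between the Arntl-high and Dbp-high kidneys. At an unadjusted p under 0.05 there were 26 of the 134, where all tested genes had 13.1%. DESeq2 called 497 of the 15042 genes to which it gave an adjusted p (3.3%) and 9 of the 134: 4 of the 12 genes for proximal tubule segments S1 and S2, Lrp2 among them, 2 of the fibroblast and smooth muscle genes, and 1 each of the injury, podocyte and intercalated cell genes. All 9 tested adipose genes had a positive change (median 0.68) and none passed by either tool (1 at an unadjusted p under 0.05). Their summed level, with all 10 list genes, was 77.9 to 190 CPM in the Arntl-high and 89 to 159 CPM in the Dbp-high kidneys, and none of the 10 was at 0 in all kidneys. All 6 tested erythrocyte genes had a negative change (median -0.22) and none passed by either tool or at an unadjusted p under 0.05. Of the proximal tubule genes, 9 of 12 for S1 and S2 and 8 of 10 for segment S3 had a negative change. Of all tested genes, 49.6% had one. At an unadjusted p under 0.05 by edgeR there were 5 of the 12 and 6 of the 10. The summed level of the S1 and S2 genes was 15498 to 16390 CPM in the Arntl-high and 16648 to 17781 in the Dbp-high kidneys. For S3 it was 5362 to 5867 and 5745 to 6557 CPM, with overlap. The part of attached fat, blood and proximal tubule content in the results below was not tested.

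The Arntl-high kidneys differed from the Dbp-high kidneys in 104 of 17804 tested genes (0.584%), of which 33 were higher (0.185%) and 71 lower (0.399%), by edgeR's quasi-likelihood test with Benjamini-Hochberg adjustment at 0.05. At an unadjusted p under 0.05 there were 2327 (13.1%). Of the 104 genes, 98 had no overlap between the classes, against 541 (3.04%) of all tested genes, 251 (1.41%) higher and 290 (1.63%) lower. Of the 18 clock genes tested, 7 passed: Npas2 and Cry1 were higher, and Ciart, Nr1d1, Bhlhe41, Nr1d2 and Per3 lower. Without HET PBS 3 the comparison had 10 higher and 14 lower genes, and without HET PBS 7 it had 10 and 21. With membership of the 600s as a covariate no gene passed (503 higher and 459 lower genes at an unadjusted p under 0.05). In that fit WT PBS 8 is the only Dbp-high kidney in the 600s. Npas2 had a difference of 2.40 there (adjusted p = 0.728) and Slc16a1 of 1.27 (adjusted p = 0.157). With the genotype label as a covariate, 17 genes were higher and 54 lower, and Npas2 (1.49, adjusted p = 0.0695), Nr1d1 and Per3 no longer passed. Without the libraries labelled HET PBS 1 and HET PBS 6, 13 genes were higher and 22 lower, with Cry1 left of the 7 clock genes.

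Among the activators, Npas2 differed with the ranking and Clock did not pass. Npas2, the partner of ARNTL that can stand in for CLOCK, was at 3.39, 2.66, 7.74, 6.08 and 5.35 CPM in the Arntl-high kidneys, in order of rising ratio. In the Dbp-high kidneys it was at 0.95, 1.35, 1.54, 1.67 and 2.14 CPM. The classes did not overlap, and Npas2 was higher by 1.72 ± 0.29 (log2, SE; adjusted p = 0.0269). The middle kidneys were at 1.41 to 2.42 CPM, next to the Dbp-high ones. Clock was at 87.1 to 117 CPM against 78.6 to 92.8 CPM, a difference of 0.21 ± 0.08 (log2, SE; adjusted p = 0.269). Arntl2, a paralog of Arntl, stayed at or below 1.52 CPM in both classes (0.59 ± 0.20, adjusted p = 0.236).

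Of the 8 clock repressors tested, Ciart, Bhlhe41 and Per3 were lower, Cry1 was higher and the other 4 did not pass. Ciart, whose protein CHRONO represses the ARNTL pair, had the largest change of the clock genes tested. It was at 1.10, 3.66, 1.55, 0.625 and 2.24 CPM in the Arntl-high and 9.17, 8.98, 13.7, 6.22 and 11.9 CPM in the Dbp-high kidneys. That is a fall of 2.45 ± 0.37 (log2, SE; adjusted p = 0.0146) with no overlap. Bhlhe41 (DEC2), which competes for E-boxes, was at 3.06 to 4.69 CPM against 5.71 to 10.9 CPM and fell by 1.27 ± 0.17 (adjusted p = 0.00819). Cry1, the repressor with its own ROR elements, was at 16.3, 14.6, 16.3, 17.0 and 15.6 CPM in the Arntl-high and 7.18, 5.30, 6.99, 6.08 and 10.7 CPM in the Dbp-high kidneys. Its level rose by 1.14 ± 0.15 (log2, SE; adjusted p = 0.00819), again with no overlap, and its 5 Arntl-high values lay within a narrow span.

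Of the 3 Per genes, which encode partners of the CRY repressors, Per3 passed. Per3 was at 43.8, 37.1, 39.8, 30.6 and 33.6 CPM in the Arntl-high and 49.2, 59.7, 47.9, 51.3 and 47.4 CPM in the Dbp-high kidneys. Its fall of 0.47 ± 0.09 (log2, SE; adjusted p = 0.0498) was at the threshold and was past it in 1 of the 10 fits that each left out 1 library. Per1, which also answers to light, stress and glucocorticoids, was at 32.3 to 76.1 CPM against 55.3 to 146 CPM (-1.01 ± 0.30, adjusted p = 0.175), and its middle kidneys spanned 16.7 to 195 CPM. Per2 was at 49.4 to 64.1 against 57.1 to 92.6 CPM (-0.37 ± 0.12, adjusted p = 0.211). Cry2 was at 25.1 to 30.8 against 21.8 to 36.6 CPM (-0.10 ± 0.12, adjusted p = 0.787), and Bhlhe40 (DEC1) at 70.9 to 94.7 against 78.2 to 197 CPM (-0.78 ± 0.20, adjusted p = 0.126).

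Both REV-ERB genes were lower. Nr1d1 (REV-ERBα) was at 20.2, 26.6, 16.2, 10.6 and 17.6 CPM in the Arntl-high and 39.8, 80.6, 40.9, 41.9 and 36.2 CPM in the Dbp-high kidneys. It fell by 1.40 ± 0.25 (log2, SE; adjusted p = 0.0350) with no overlap, and WT PBS 3 was far above the other Dbp-high values. Nr1d2 (REV-ERBβ) was at 117, 146, 125, 91.2 and 103 CPM in the Arntl-high and 182, 188, 185, 189 and 199.8 CPM in the Dbp-high kidneys, a fall of 0.70 ± 0.10 (adjusted p = 0.0122). Its Dbp-high values were the most even of the clock genes that passed. Of the ROR genes, Rora (0.18 ± 0.15, adjusted p = 0.672) and Rorb (-0.19 ± 0.22, adjusted p = 0.764) did not pass, and Rorb stayed at or below 2.48 CPM in both classes. The sources used here do not give the counting strand, and 8.5% of the exon bases of Nr1d1 are shared with Thra on the opposite strand and 19.0% of those of Bhlhe41 with Gm43909.

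Of the D-box genes other than Dbp, edgeR called none of 3 (1 at an unadjusted p under 0.05) and DESeq2 called Tef. Tef was at 212 to 259 CPM in the Arntl-high and 257 to 335 CPM in the Dbp-high kidneys, and missed the threshold in this comparison (-0.39 ± 0.08, adjusted p = 0.0560). Hlf was at 132 to 170 against 138 to 176 CPM (-0.09 ± 0.08, adjusted p = 0.703). Nfil3 was at 15.02, 14.01, 14.8, 6.71 and 17.8 CPM against 5.67, 3.48, 7.29, 9.93 and 15.5 CPM, with overlap (0.71 ± 0.34, adjusted p = 0.415). By TPM, a level per length, over the 15 PBS kidneys, the mean level of Tef was 61.2, of Nr1d2 31.4, of Dbp 24.7, of Nr1d1 10.6, of Clock 9.58, of Ciart 4.02, of Cry1 2.69, of Arntl 1.82 and of Npas2 0.547.

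**Figure D3:**
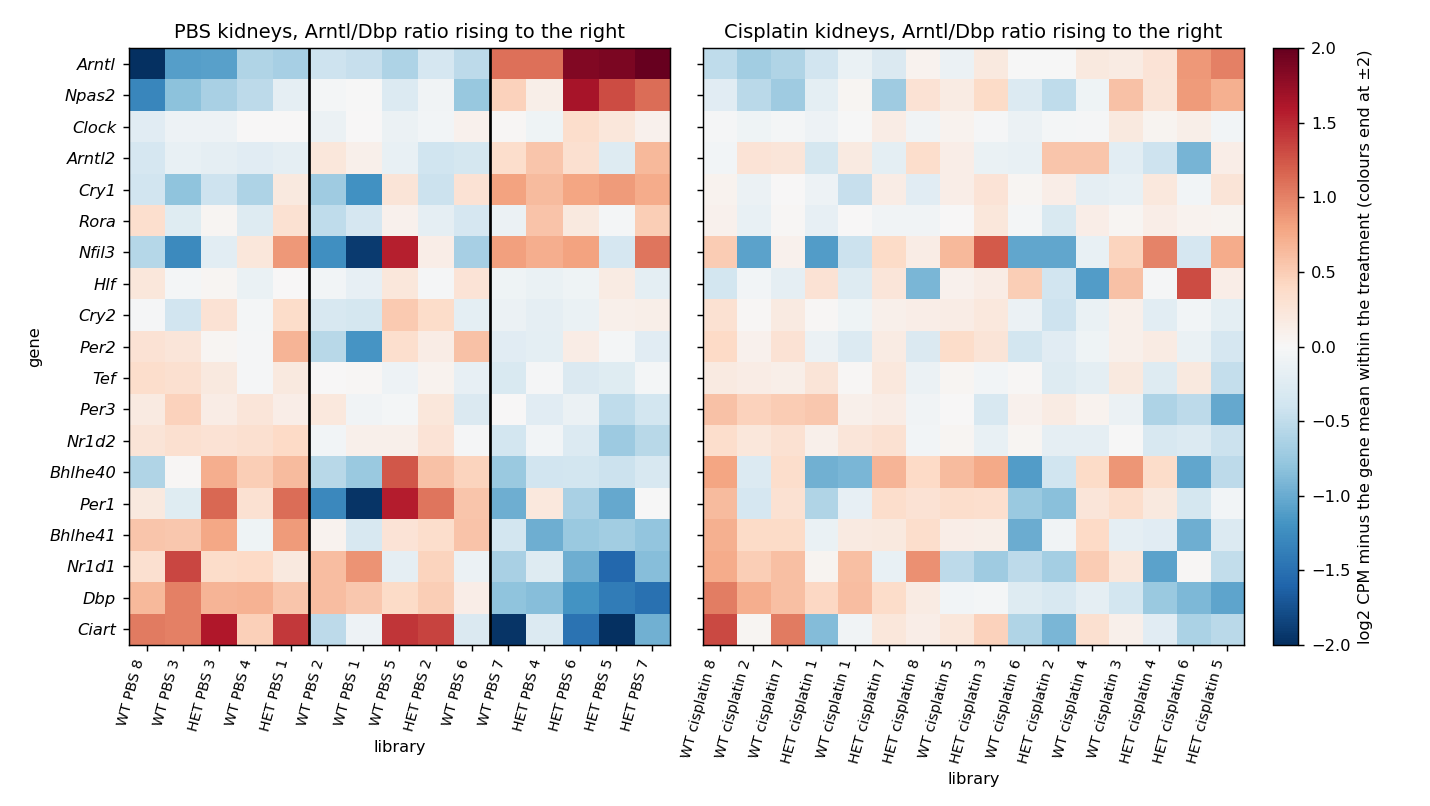
Each cell gives log2 CPM of a clock gene minus that gene's mean within the treatment, for the 15 PBS kidneys (left, black lines between the Dbp-high, middle and Arntl-high kidneys) and the 16 cisplatin kidneys (right), with colours ending at ±2. Rows run from Arntl to Ciart (Rorb is not shown), and Npas2 and Cry1 share the red of Arntl at the right of the PBS panel while Ciart, Nr1d1 and Bhlhe41 share the blue of Dbp.

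None of 15 genes for clock protein modifiers (kinases, ligases and phosphatases acting on clock proteins) passed by edgeR or by DESeq2. Their changes ran from -0.17 to 0.31 log2, with 4 at an unadjusted p under 0.05 by either. Of all tested genes, 13.1% were under it by edgeR. Of 17 tested genes on a list of known clock outputs, 2 passed. Dtx4, a ubiquitin ligase of the Notch pathway, was at 21.5, 19.5, 26.2, 26.1 and 24.02 CPM in the Arntl-high and 10.3, 11.0, 9.87, 13.7 and 10.01 CPM in the Dbp-high kidneys. It rose by 1.09 ± 0.11 (log2, SE; adjusted p = 0.000895), and its middle kidneys were at 12.0 to 18.7 CPM. Coq10b, which encodes a coenzyme Q binding protein, was at 41.2 to 65.0 against 66.5 to 111 CPM and fell by 0.84 ± 0.14 (adjusted p = 0.0245), which passed in 4 of the 10 fits without 1 library. The other 15 covered a range: Usp2 (-0.18 ± 0.16), Wee1 (-0.15 ± 0.14), Klf9 (-0.00 ± 0.17), Alas1 (-0.47 ± 0.36), Noct (-0.26 ± 0.14), Nampt (0.10 ± 0.08) and Tsc22d3 (0.26 ± 0.26) had adjusted p from 0.479 to 0.996. The cell cycle inhibitor Cdkn1a (1.26 ± 0.50) and the transferrin receptor Tfrc (-0.87 ± 0.24) had the largest changes among those that did not pass, with adjusted p of 0.305 and 0.151, and Tfrc did not overlap (28.1 to 74.2 against 76.3 to 124 CPM).

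Outside the clock lists, 6 genes are given here from those with the largest rises or the smallest p for a slope on the ratio, and none of the 6 overlapped between the classes. Slc16a1, the lactate and pyruvate transporter MCT1, was at 55.4, 56.8, 69.0, 76.4 and 62.9 CPM in the Arntl-high and 26.6, 25.0, 35.4, 30.3 and 29.5 CPM in the Dbp-high kidneys, a rise of 1.13 ± 0.11 (log2, SE; adjusted p = 0.000652). Ypel2 was at 40.3 to 54.4 against 17.4 to 23.4 CPM (1.16 ± 0.10, adjusted p = 0.000652). Leo1, a subunit of the PAF1 elongation complex, was at 14.4 to 16.3 against 8.76 to 10.6 CPM (0.66 ± 0.07, adjusted p = 0.00229). Gldc, of the glycine cleavage system, was at 243 to 342 against 112 to 207 CPM (0.79 ± 0.15, adjusted p = 0.0358), and passed in 4 of the 10 fits that left out 1 library. Acsl1, which activates long-chain fatty acids, rose by 0.49 ± 0.06 (adjusted p = 0.00589), and the mitochondrial protease subunit gene Clpx by 0.60 ± 0.08 (adjusted p = 0.00819).

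Hmox1, the haem-degrading enzyme of the oxidative stress response, had the largest rise of the 33 higher genes. It was at 286, 672, 284, 262 and 826 CPM in the Arntl-high and 159, 20.9, 28.7, 35.2 and 71.1 CPM in the Dbp-high kidneys, and HET PBS 4 and HET PBS 7 were the highest. The rise was 2.89 ± 0.56 (log2, SE; adjusted p = 0.0409), and it was past the threshold in 1 of the 10 fits that left out 1 library. On the list of fasting and PPARA targets, 17 of 19 tested genes had a positive change (median 0.21, against 0.00 over all tested genes) and 1 passed, Acot2, which rose by 0.27 ± 0.05 (adjusted p = 0.0350) and has a near-identical copy in Acot1, so that the split of reads between them is uncertain. Acot2 passed in 1 of the 10 fits without 1 library (adjusted p up to 0.0807). The facilitative glucose transporter Slc2a2 fell by 0.35 ± 0.05 (adjusted p = 0.0146), at 145 to 164 against 185 to 219 CPM.

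Of the immediate early genes, Fos and Fosb were low in all 5 Arntl-high kidneys and spread over a wide range in the other 10. Fos was at 1.46, 4.96, 2.16, 1.98 and 1.04 CPM in the Arntl-high and 1.96, 1.52, 47.9, 182 and 9.85 CPM in the Dbp-high kidneys. The middle kidneys ran from 1.21 (WT PBS 1) to 253 CPM (HET PBS 2), so the low values were not limited to the Arntl-high kidneys, and Fos did not pass (-4.38 ± 1.18, adjusted p = 0.139). All 16 genes of the list had a negative change (median -1.97), as had 49.6% of all tested genes, and 3 passed: Fosb (-6.09 ± 1.01, adjusted p = 0.0245), Nr4a1 (-4.67 ± 0.89, adjusted p = 0.0374) and Atf3 (-4.27 ± 0.62, adjusted p = 0.0122). Leaving out 1 library kept Fosb past the threshold in 3 of 10 fits, Nr4a1 in 2 and Atf3 in 10. With the ratio as a number over all 15 PBS kidneys, none of the 16 passed by edgeR (lowest adjusted p = 0.12; 9 at an unadjusted p under 0.05). With the 600s as a covariate none passed either, and Fos (0.25) and Egr1 (0.31) had changes above 0. Atf3 was at 0.587 to 1.39 CPM in the Arntl-high and 2.54 to 35.0 CPM in the Dbp-high kidneys, and at 0.454 to 93.4 CPM in the middle ones. Fosb and Nr4a1 overlapped between the classes through WT PBS 3, which was at 0.663 and 3.87 CPM against 0.104 to 1.12 and 2.03 to 8.56 CPM in the Arntl-high kidneys.

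Of the 15 largest falls, 5 others are given here. Nr4a2 fell by 4.08 ± 0.75 (adjusted p = 0.0358), the interferon-induced chemokine Cxcl10 by 2.61 ± 0.41 (adjusted p = 0.0175), the endothelial early gene Apold1 by 2.16 ± 0.43 (adjusted p = 0.0489), the endothelial repressor gene Bcl6b by 1.35 ± 0.26 (adjusted p = 0.0384) and the ER stress factor Ddit3 (CHOP) by 1.09 ± 0.17 (adjusted p = 0.0175). Without 1 library at a time, Nr4a2 and Bcl6b passed in 2 of 10 fits, Apold1 in 1, and Cxcl10 and Ddit3 in 8. WT PBS 3 was the lowest of the Dbp-high kidneys for Nr4a2 (0.525 CPM), Cxcl10 (3.78 CPM) and Apold1 (3.18 CPM), as for Fosb and Fos. Hspa8, a constitutive heat shock protein gene, and its co-chaperone gene Dnajb1 did not pass (-0.59 ± 0.17 and -0.85 ± 0.24, adjusted p 0.168 and 0.161).

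**Figure D4:**
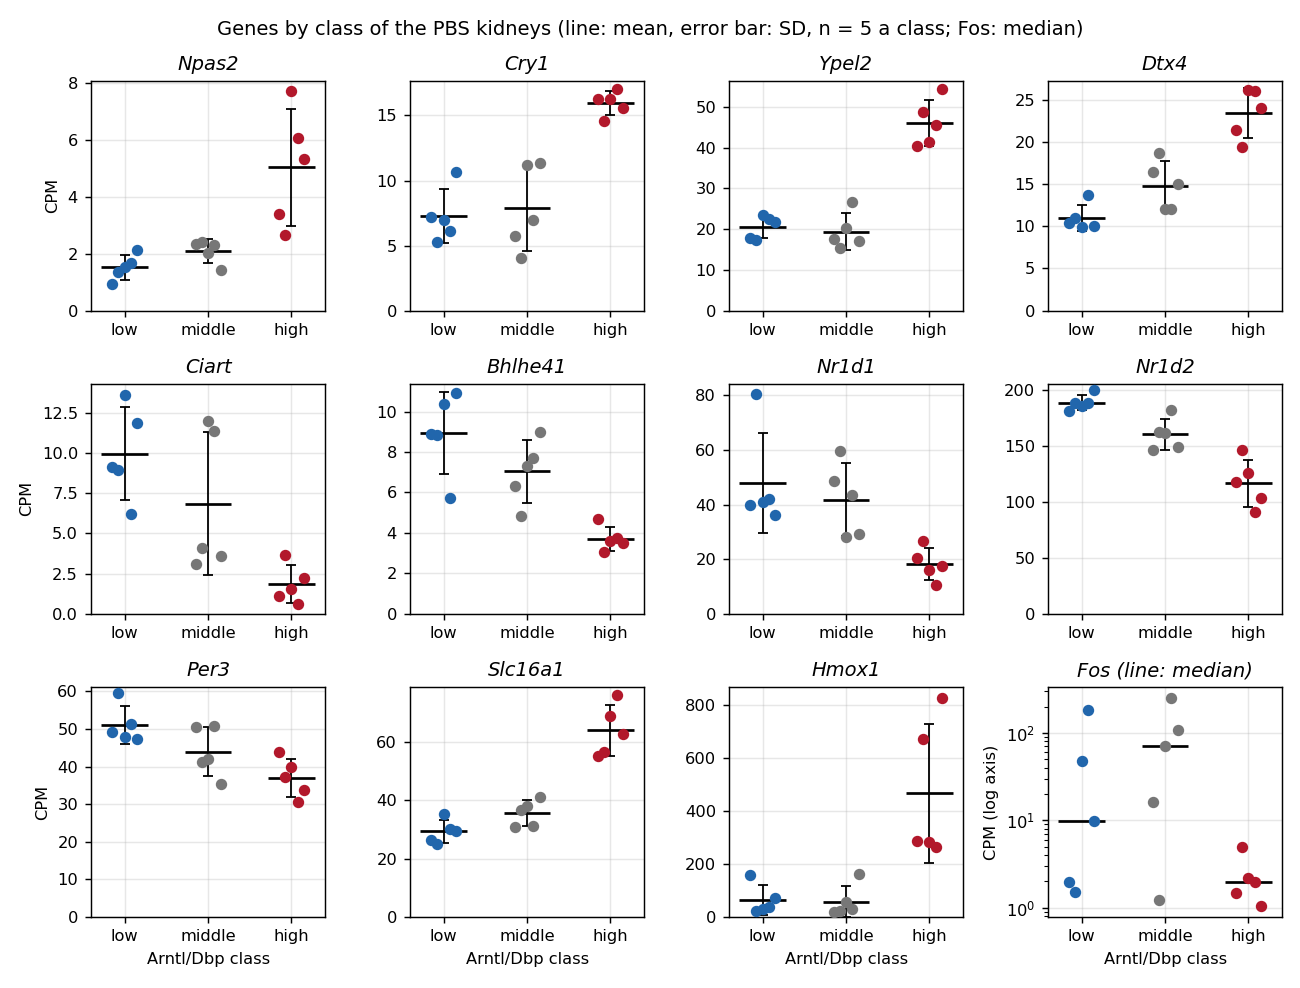
Points are single PBS kidneys in CPM by class (low: Dbp-high, high: Arntl-high), with the class mean as a line and the SD as an error bar (n = 5 a class), except for Fos, which is on a log axis with the median as a line. Npas2, Cry1, Ypel2, Dtx4, Slc16a1 and Hmox1 are higher in the high class and Ciart, Bhlhe41, Nr1d1, Nr1d2 and Per3 lower, while the Fos values of the low and middle classes span from 1.21 to 253 CPM.

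Further genes past the threshold had other functions. Gjb2, which encodes the gap junction protein connexin 26, was at 53.9 to 69.98 against 93.4 to 109 CPM and fell by 0.72 ± 0.07 (adjusted p = 0.000652). Sap30, a subunit of the SIN3 histone deacetylase complex, was at 18.5 to 27.4 against 29.3 to 45.3 CPM (-0.91 ± 0.14, adjusted p = 0.0146). The lipid-binding protein gene Osbpl3 fell by 0.43 ± 0.05 (adjusted p = 0.00514). Adamtsl5, a low-level gene of the extracellular matrix, was at 2.09 to 3.11 against 0.969 to 1.66 CPM (0.97 ± 0.18, adjusted p = 0.0358), and Sh3tc2 was at 37.4 to 57.5 against 26.7 to 31.9 CPM (0.74 ± 0.11, adjusted p = 0.0140). Odc1, the first enzyme of polyamine synthesis and an androgen-dependent kidney gene, was at 737 to 834 against 832 to 1063 CPM (-0.34 ± 0.06, adjusted p = 0.0363), and all 9 tested genes of its list had a negative change (median -0.16). Odc1 and Adamtsl5 each passed in 1 of the 10 fits without 1 library, Sap30 in 8, and Gjb2, Osbpl3 and Sh3tc2 in all 10.

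Of 25 tubule transport genes known to be rhythmic in mouse kidney, none passed by edgeR (7 at an unadjusted p under 0.05) and Kl by DESeq2, with changes from -0.28 to 0.28 log2. Scnn1a, the alpha subunit of the epithelial sodium channel, was at 99.3 to 115 against 88.9 to 105 CPM (0.19 ± 0.06, adjusted p = 0.172). Slc9a3, the sodium-hydrogen exchanger NHE3, was at 108 to 136 against 132 to 158 CPM (-0.21 ± 0.07, adjusted p = 0.201). Kl, the FGF23 co-receptor klotho, did not overlap at 718 to 819 against 850 to 911 CPM and did not pass by edgeR (-0.17 ± 0.05, adjusted p = 0.139). None of 20 glucocorticoid response genes, 19 heat shock and cold-inducible genes or 15 cholesterol and lipid synthesis genes passed by edgeR, with medians of 0.13, -0.08 and -0.01. At an unadjusted p under 0.05 there were 7, 4 and 4 of these, and DESeq2 called 0, 0 and 1. Of all tested genes, 13.1% were under that unadjusted p by edgeR.

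The middle kidneys, which took no part in that comparison, lay nearer to the Dbp-high kidneys for 93 of the 104 genes. On the log2 scale their mean lay 18.1% of the way from the Dbp-high to the Arntl-high mean (median over the genes). Their ratio, which had ordered the kidneys, lay at 20.9%. The position was not computed over all tested genes. The position was 28.6% for Npas2, 27.4% for Bhlhe41, 28.5% for Ciart, 33.7% for Nr1d2, 47.4% for Per3, 13.7% for Nr1d1 and 4.02% for Cry1. With the ratio as a number over all 15 PBS kidneys, 137 of 17815 genes passed (0.769%), 60 upward and 77 downward, and all 7 clock genes above were among them. Tef also passed in this fit, with a slope of -0.07 ± 0.02 log2 units per unit of log2 ratio (SE; adjusted p = 0.0473). The steepest upward clock slope was that of Npas2 at 0.37 ± 0.04 (adjusted p = 0.000162) and the steepest downward one that of Ciart at -0.52 ± 0.10 (adjusted p = 0.0183). Slc16a1 had a slope of 0.24 ± 0.02 (adjusted p = 2.6e-06).

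Within the 8 PBS animals numbered in the 600s, 4 genes passed, and the slope of Npas2 was 0.43 ± 0.06 (adjusted p = 0.0542), of Cry1 0.17 ± 0.02 (0.0565), of Ciart -0.49 ± 0.11 (0.226) and of Nr1d1 -0.21 ± 0.04 (0.177), with adjusted p in brackets. The 4 were Slc16a1 (0.21 ± 0.02, adjusted p = 0.00453), Dtx4 (0.21 ± 0.02, adjusted p = 0.00489), Ndrg1 (0.13 ± 0.02, adjusted p = 0.0423) and Bcl6b (-0.43 ± 0.05, adjusted p = 0.0473). The 7 other PBS animals spanned ratios of only -5.32 to -4.03, and no gene passed (508 at an unadjusted p under 0.05). In the 8 WT PBS kidneys alone no gene passed (906 at an unadjusted p under 0.05). In the 7 HET PBS kidneys alone 132 passed, all 7 clock genes included. The HET slopes were 0.36 ± 0.06 for Npas2 (adjusted p = 0.0283) and -0.64 ± 0.08 for Ciart (adjusted p = 0.00780). The HET kidneys in the 600s had ratios of -1.23 to 0.35 and those outside -4.98 to -4.03. Ratio and number range thus cannot be told apart in the HET fit. All of these HET kidneys except HET PBS 2 also entered the comparison that called the 7 clock genes. The WT slopes were 0.34 ± 0.09 for Npas2 and -0.65 ± 0.19 for Ciart (unadjusted p 0.00295 and 0.00579). The difference between the genotypes' slopes was not tested.

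The 16 cisplatin kidneys took no part in the ranking, and their ratios ran from -1.998 to 1.60, all above those of the middle and Dbp-high PBS kidneys. A slope on the ratio, with the genotype label as a covariate, was past the threshold for 2 of 18181 genes (0.011%), both clock genes and both downward, by edgeR's quasi-likelihood test. At an unadjusted p under 0.05 there were 2100 genes (11.6%). Nr1d2 had a slope of -0.20 ± 0.03 log2 units per unit of log2 ratio (SE; adjusted p = 0.0237) and ran from 99.4 CPM in the kidney of highest ratio to 171 CPM in that of lowest, with a median of 136. Per3 had a slope of -0.38 ± 0.05 (adjusted p = 0.0204) and ran from 20.4 to 62.7 CPM in the same pair of kidneys, with a median of 44.3. These 2 calls depend on single kidneys: with 1 of the 16 left out at a time, between 0 and 2 genes were downward, and none upward except 1 without WT cisplatin 4. No gene was downward without HET cisplatin 1, 5 or 7 or WT cisplatin 3, 5, 7 or 8.

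For the 7 clock genes that passed in the PBS kidneys, the cisplatin slopes had the same sign in 7 of 7. Npas2 had 0.38 ± 0.09 (unadjusted p = 0.000519), Bhlhe41 -0.29 ± 0.09 (unadjusted p = 0.00556), Ciart -0.30 ± 0.14 (unadjusted p = 0.0504) and Nr1d1 -0.24 ± 0.13 (unadjusted p = 0.0821). Cry1 was near 0 (0.03 ± 0.05), at 13.0 to 21.6 CPM in all 16 kidneys, around the Arntl-high PBS level. CPM was scaled separately for PBS and cisplatin libraries, so levels are only roughly comparable across treatments. For the other 97 genes that passed in PBS, 48 had the same sign in cisplatin and 49 the opposite sign. At an unadjusted p under 0.05 there were 8 of the same and 9 of the opposite sign. Slc16a1 had the same sign (0.35 ± 0.07, unadjusted p = 0.000229), and so had Leo1 (0.10 ± 0.04, unadjusted p = 0.0284) and Dtx4 (0.06 ± 0.06, unadjusted p = 0.303). Ypel2 had 0.02 ± 0.06 and Hmox1 0.16 ± 0.28. The cisplatin animals share the numbering with the PBS animals, and 14 of the 16 are in the 600s.

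The difference between the cisplatin and the PBS slope was past the threshold for 167 of 19266 genes (0.867%). It was tested in 1 fit over all 31 kidneys with the genotype label as a covariate. The slopes printed beside it come from the separate fits of each treatment. Of the 7 clock genes it was so for Per3, whose slope was steeper in cisplatin (-0.38 against -0.10, adjusted p = 0.00884). Ypel2 (0.02 in cisplatin against 0.27, adjusted p = 0.0327), Gjb2 (0.13 against -0.16, adjusted p = 0.0367), Bcl6b (0.12 against -0.33, adjusted p = 0.0368) and Odc1 (0.31 against -0.07, adjusted p = 0.0289) also differed. The slopes of Bcl6b, Gjb2 and Odc1 had opposite signs under the 2 treatments. In cisplatin, the proximal tubule genes Lrp2 (0.33 ± 0.15) and Cubn (0.37 ± 0.15) also rose with the ratio (edgeR, unadjusted p 0.0475 and 0.0265, adjusted p 0.432 and 0.407). HET cisplatin 6, at a ratio of 1.32, had Havcr1 at 35.9 CPM, against 204 to 583 in the other cisplatin kidneys. With Havcr1 as a covariate the slopes were 0.33 for Odc1, 0.11 for Bcl6b and 0.09 for Gjb2. The part of tubule content was not tested.

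**Figure D5:**
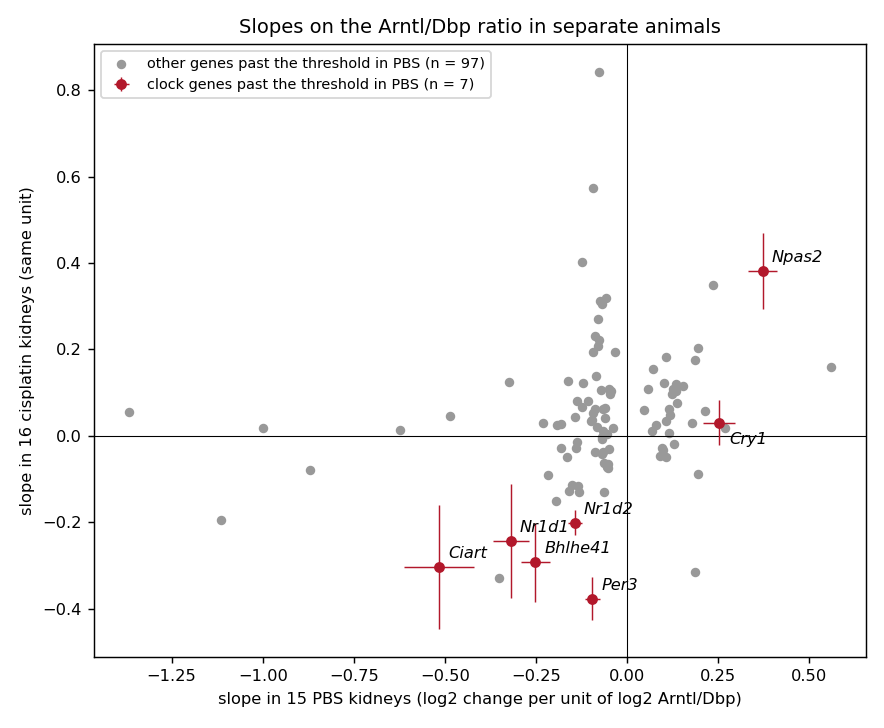
Each point is a gene past the threshold between Arntl-high and Dbp-high kidneys, with its slope over the 15 PBS kidneys on the x axis and over the 16 cisplatin kidneys on the y axis, both in log2 units per unit of log2 Arntl/Dbp ratio. The 7 clock genes (red, with SE bars) lie in the quadrants of equal sign, and the other 97 (grey) are spread over all 4 quadrants.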

How the data were processed

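Kidney mRNA libraries from 31 mice were used, and the 15 PBS libraries were ranked. The authors deposited expected counts, TPM and FPKM for each library. Per the submitters' processing notes, the tools were fastp, STAR and featureCounts, with GRCm38 and mm10 named as builds. Versions, order and counting strand are not stated there. The deposited expected counts were not whole for 12.5% of values, in 26.4% of genes, and were rounded. The deposited TPM served for levels per length and 1 alternative fit, and the deposited FPKM were not used.

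The ranking ratio had a pseudocount of 1. Classes were compared with edgeR 4.0.16 (filterByExpr, TMM, glmQLFit, glmQLFTest; R 4.3.3), with Benjamini-Hochberg adjustment at 0.05 over all tested genes except Arntl and Dbp. SE was the log2 change divided by the root of F. Slopes used the ratio as a number, with the genotype label as a covariate in cisplatin. The difference of slopes came from 1 fit over all 31 libraries, with genotype label, treatment, ratio and the interaction of treatment and ratio. The slopes of the separate fits therefore need not subtract exactly to that difference. Limma 3.58.1 and DESeq2 1.42.0 were alternatives. CPM used the total count of each library times its TMM factor, computed separately for the PBS and the cisplatin libraries. On simulated counts for 17575 genes in the 5 against 5 design, 63 of 100 genes changed by 1.5 times and 89 of 100 changed by 2 times were recovered, and 2 unchanged genes were called.

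Any other gene named was chosen after its values were seen. The members and gene lists were chosen with earlier results of these data known. Some genes are not reported here: they stayed in the fits over all genes and were left out of the lists and of every count over a list. Named genes came from the clock and clock output lists, the 15 largest rises and 15 largest falls among genes called (mean CPM 1 or more in the class where it was higher, regular symbols only), the 10 genes of smallest PBS slope p outside the lists, and up to 4 genes of smallest p in each other list. Slope alternatives were run for the genes whose slopes are printed, which was decided after seeing values. Promoter letters came from RefSeq (GRCm38.p6), and exon overlaps from GENCODE.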

Additional observations from a re-analysis of the deposited data

Results flagged for a closer look

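Of 50 groups of 5 kidneys tested for a single distant value, 5 held one, and chance gives about 1 in 20 groups. In the Arntl-high kidneys, Bhlhe40 was at 70.93 CPM in WT PBS 7, against 88.34 to 94.65 in the other 4. Nfil3 was at 6.708 CPM in HET PBS 5, against 14.01 to 17.84. The mitochondrial share of counts was 8.961% in WT PBS 7, against 8.264% to 8.458%, and the Malat1 share was 1.454% in HET PBS 5, against 1.716% to 1.799%. In the Dbp-high kidneys, Nr1d1 was at 80.6 CPM in WT PBS 3, against 36.15 to 41.91.

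The slope on the ratio differed between cisplatin and PBS kidneys for 8 of the genes described (edgeR's quasi-likelihood test of the interaction, Benjamini-Hochberg adjusted). In log2 units per unit of log2 ratio, the cisplatin slope minus the PBS slope was 0.4315 for Bcl6b (adjusted p = 0.0368), 0.3613 for Odc1 (0.0289), 0.2818 for Gjb2 (0.0367) and 0.1702 for Osbpl3 (0.0290). It was -0.471 for Adamtsl5 (adjusted p = 0.00911), -0.2854 for Per3 (0.00884), -0.2737 for Ypel2 (0.0327) and -0.1598 for Lgalsl (0.0420). Per3 had the same sign under both treatments and was steeper in cisplatin. Adamtsl5 rose with the ratio in PBS (0.19) and fell with it in cisplatin (-0.31). The part of tubule content in these differences was not tested.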

How the results depend on the processing

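No paired analysis was possible because each library comes from its own animal and the labels give the groups no shared replicate numbers. Counts are given as higher and lower genes, 33 and 71 in the reported comparison. They were 200 and 297 by DESeq2, 17 and 19 with 4 kidneys a class, 60 and 77 with the ratio as a number, 17 and 54 with the genotype label as a covariate, 13 and 150 by limma on log2(TPM + 1), and 13 and 22 without the libraries labelled HET PBS 1 and HET PBS 6, the last chosen after seeing the data. With the 600s as a covariate they were 0 and 0 (503 and 459 at an unadjusted p under 0.05, edgeR). Voom, RLE scaling, no TMM, both other filters and 3 classes stayed within 1.5 times. A ranking by Npas2 and Nr1d1, added after seeing the data, gave 34 and 61. It used genes called in the reported comparison and kept 5 Arntl-high and 4 Dbp-high kidneys in their classes, so it is no separate check. Leaving out 1 library gave 10 to 51 higher and 14 to 97 lower genes. The lowest counts came without HET PBS 3 (10 and 14), HET PBS 7 (10 and 21) and WT PBS 4 (12 and 29), and the highest without WT PBS 3 (51 and 97). Without HET PBS 1, 4, 5 or 6 or WT PBS 7 there were 17 to 21 higher and 27 to 46 lower genes. Of the 39 genes described that passed, none reversed in any of these. Of the 7 clock genes, Cry1, Nr1d2 and Bhlhe41 passed in all 10 fits without 1 library, Ciart in 9, Npas2 in 6, Nr1d1 in 4 and Per3 in 1.

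The PBS slope had 60 upward and 77 downward genes. There were 22 and 110 in HET alone, 28 and 39 with the genotype label as a covariate, and 3 and 1 in the 600s alone. In HET alone the ratio and membership of the 600s cannot be told apart. There were 0 and 0 in WT alone (455 and 451 unadjusted, edgeR) and 0 and 0 outside the 600s (285 and 223). The cisplatin slope had 0 upward and 2 downward genes. There were 0 downward in WT alone (337 unadjusted) and in HET alone (548), and 1 in the 600s alone. Leaving out 1 library gave 0 to 1 upward and 0 to 2 downward, with 0 downward without HET cisplatin 1, 5 or 7 or WT cisplatin 3, 5, 7 or 8 and 1 without HET cisplatin 4 or WT cisplatin 1.

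The reversals were of values that had not passed, or of slopes. Klf9, near 0, became 0.001461 with a CPM filter, 0.1311 with 4 a class, 0.01506 as a slope, 0.0213 without both HET libraries and 0.1404 under the Npas2 ranking. Without 1 library it ran from -0.0977 (HET PBS 4) to 0.1027 (HET PBS 5), and was above 0 also at 0.07526 (WT PBS 8), 0.005131 (HET PBS 3), 0.05535 (HET PBS 1) and 0.07161 (WT PBS 7). Cry2 became 0.007927 with 4 a class, 0.01039 without both HET libraries and 0.04487 under the Npas2 ranking, where Wee1 was 0.04194 and Rorb 0.0112. The cold-inducible gene Cirbp had a slope of -0.0063. Tsc22d3 became -0.0293 with the genotype covariate and Tspan4 -0.003798 by TPM. With the 600s as a covariate, Fos was 0.2527, Bhlhe40 0.1538, Tsc22d3 -0.05305, Rora -0.1001, Alas1 0.1406, Egr1 0.3102 and Cirbp -0.2619. Outside the 600s the PBS slopes of Bcl6b and Gjb2 were 0.01249 and 0.1447. Cisplatin slopes in WT alone were -0.07056 for Hmox1, -0.01406 for Cry1 and -0.03209 for Dtx4, and in HET alone -0.01715 for Ypel2. With Havcr1 as a covariate Hmox1 was -0.05429. Without HET cisplatin 5 Ypel2 was -0.03814 and Lgalsl 0.001781, and without HET cisplatin 6 Hmox1 was -0.1592. At the other end of their ranges without 1 library were Hmox1 at 0.483 (HET cisplatin 7), Ypel2 at 0.07796 (HET cisplatin 6) and Lgalsl at -0.03788 (WT cisplatin 4). Without WT cisplatin 3 Ypel2 was -0.002207, and without WT cisplatin 8 Lgalsl was 0.0008268. The cause of these changes was not tested.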
